A study of Mus musculus with 8 samples.

Results

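A set of 210 genes, of 13540 in the table, peaked in day 4 mesoderm during the differentiation of stem cells into heart muscle cells. The cells were mouse embryonic stem cells (strain 129/Ola) on their way to heart muscle, with poly(A) RNA sequenced at 4 stages. Undifferentiated stem cells were taken at day 0 (ESC), mesoderm at day 4 (MES), precursors of the heart at day 5.3 (CP) and cardiomyocytes at day 10 (CM). Floating aggregates were dissociated and allowed to form again in medium that held VEGF, BMP4 and Activin A, after which cells were plated in medium with VEGF, basic FGF and FGF10. The labels name no sorting step and no reporter, and each stage had 2 libraries, 8 in all. A gene was a member if its log2(RPKM + 1) value in MES was at least 1 above its values in both ESC and CP, that is, at least 2-fold higher on a scale that understates the difference of genes with low values. RPKM is the number of reads divided by the length of the gene model in kilobases and by the depth of the stage. The best known factors of the primitive streak (T, Eomes) and the symbols of further families, among them Mesp, Tbx, Wnt, Fgf, Hox and Fox genes, were left out.

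Of 13540 genes in the table, 244 (1.8%) met the rule, 34 of these were left out by symbol, and 210 were members. The MES level was at least 2-fold above the ESC level for 1498 of all genes (11.1%), and the CP level at least 2-fold under the MES level for 529 (3.91%). Every member is in both counts because the rule used both contrasts, so the MES, ESC and CP values below describe the choice and carry no test. The table holds 1 value per stage and no replicate columns, so no difference given here has a replicate check. Depth was estimated at 75.3 M reads (1 M is 1000000) in ESC, 62.0 M in MES, 64.8 M in CP and 88.5 M in CM. Whole read numbers were recovered for 191 of the 210 members, with a median of 1827 reads and a minimum of 20 reads in MES. In 190 of these 191 members the 95% Poisson interval of the MES value lay above the intervals of both ESC and CP, the exception being the mitochondrial tRNA gene mt-Tv. These intervals cover counting error only, and they are of the same values that chose the members, so they carry no test.

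Nascent mesoderm forms when epiblast cells pass through the primitive streak, lose their epithelial ties and migrate. WNT, NODAL, BMP and FGF signals set these steps, and cells that leave the streak at different places become cardiac, paraxial or other mesoderm. Paraxial mesoderm is later cut into somites by a clock of Notch, WNT and FGF signalling.

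The day 4 label was checked against marker lists. Of 16 markers of streak and early mesoderm, 15 were at least 2-fold higher in MES than in ESC, and their summed level was 17.6 in ESC, 654 in MES, 181 in CP and 37.0 RPKM in CM. Summed over 7 pluripotency markers the level was 1590, 93.5, 20.6 and 13.0 RPKM over the same stages, and over 7 cardiomyocyte markers it was 12.8, 75.8, 2215 and 12126 RPKM. Summed over 25 endoderm genes the level was 674 in ESC, 514 in MES, 410.2 in CP and 375 RPKM in CM. This sum was highest in ESC, where Trh, Krt18 and Epcam had the largest values of the list. Gene by gene, 9 of the 25 were at least 2-fold higher and 4 lower in MES than in ESC. Over 37 genes of endothelium and early blood the summed level was 66.8, 178, 1030.2 and 271 RPKM over the same stages. Over 13 neural genes it was 389.7, 79.0, 35.4 and 38.6 RPKM. Of the neural sum in ESC, 212.9 RPKM came from Sox2, which is also on the list of pluripotency markers. Of the neural genes, 1 was at least 2-fold higher and 7 lower in MES than in ESC. In MES 5 of the endoderm genes, 21 of the endothelial and blood genes and 3 of the neural genes were under 1 RPKM. The part of such cells in the member values was not tested. In bulk cultures, fewer cells of a type and less RNA per cell cannot be told apart, which applies to every value below.

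**Figure D1:**
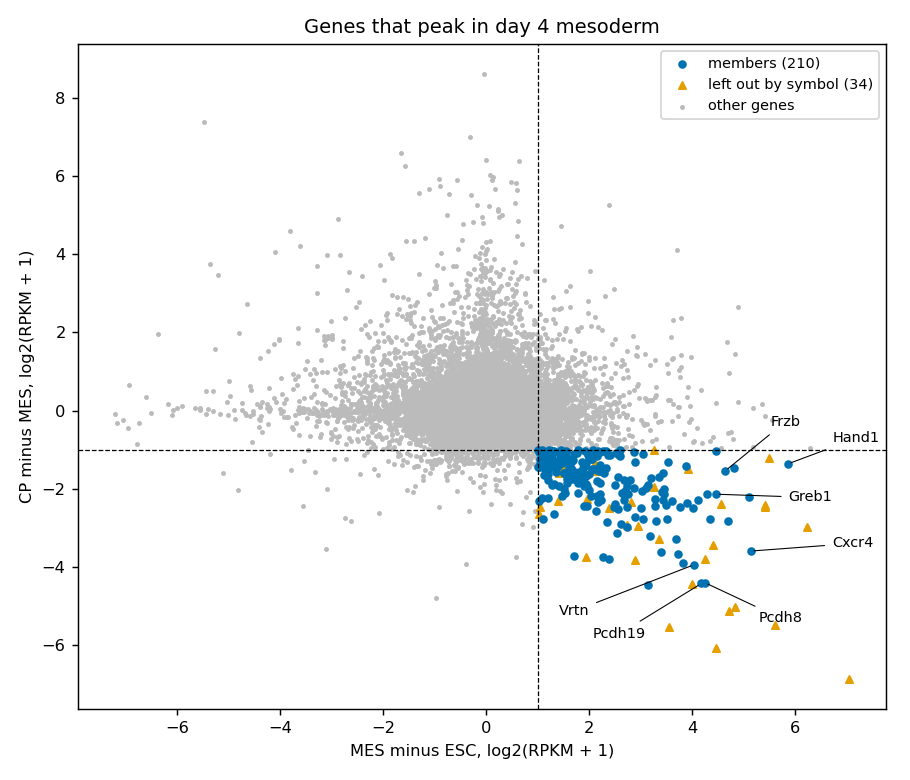
Each point is a gene, with its MES minus ESC difference on the horizontal axis and its CP minus MES difference on the vertical axis, both in log2(RPKM + 1); dashed lines mark differences of 1 and -1. The 210 members (blue circles) and the 34 genes left out by symbol (orange triangles) fill the lower right corner, and Pcdh8 (peak height 4.25) and Hand1 (MES minus ESC 5.86) stand far from the corner's edges.

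The members were mostly genes of low level outside day 4. Their median was 1.06 in ESC, 11.6 in MES, 2.05 in CP and 1.17 RPKM in CM, while the median of all genes was 6.07, 6.73, 7.11 and 6.50 RPKM over the same stages. In MES 115 members reached 10 RPKM and 8 reached 100 RPKM (5405 and 360 of the 13540 genes did). Below 1 RPKM were 103 members in ESC, 84 in CP and 100 in CM (2128, 1779 and 1983 of the 13540 genes). At all 3 of these stages 58 members were below 1 RPKM (198 of the 13540 genes). The MES, ESC and CP counts are partly set by the rule. The median MES minus ESC difference of members was 1.95 and the median CP minus MES difference was -1.61 (log2). Peak height, the smaller of the MES minus ESC and MES minus CP differences, had a median of 1.48 and reached 2 (4-fold) in 55 members and 3 (8-fold) in 10. Just inside the threshold lay SNORA42.1, 1110034A24Rik and Notch2 with peak heights of 1.01 each, and just outside lay Fads2, Sh3bp1 and Lrp8 with 0.99 each. Between CP and ESC, whose values the rule used, 156 members were under 2-fold apart (9334 of the 13540 genes were), 45 were at least 2-fold higher in CP (17.1% of all genes) and 9 at least 2-fold lower (13.9% of all genes).

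The tallest peak belonged to Pcdh8, a protocadherin of paraxial mesoderm that acts in cell sorting, with 0.337 in ESC, 24.4 in MES, 0.196 in CP and 0.0383 RPKM in CM. Its 12 reads in CM give a 95% interval of 0.0198 to 0.0668 RPKM. Pcdh19, an X-linked protocadherin of the same delta subgroup, followed with 0.327 in ESC, 23.1 in MES, 0.118 in CP and 0.0862 RPKM in CM. Both were above 20 RPKM at day 4 and below 1 RPKM at each of the other stages. Vrtn, a DNA-binding protein named for its link to the number of vertebrae in pigs, was at 6.62 in ESC, 125 in MES, 7.15 in CP and 0.523 RPKM in CM and was the sixth highest member by level in MES. Cxcr4, the receptor of the chemokine Cxcl12, was at 0.646 in ESC, 56.9 in MES, 3.77 in CP and 1.65 RPKM in CM. Phlda2, an imprinted gene that restrains growth of the placenta, was high before day 4 too, at 72.1 in ESC, 494 in MES, 111 in CP and 1.87 RPKM in CM, the second highest level in MES after Fn1. Sp5, a zinc finger factor that is a direct target of WNT signalling, was at 8.68 in ESC, 49.5 in MES, 2.59 in CP and 0.108 RPKM in CM. The gene IDs in the table are ENSMUSG00000036422 (Pcdh8), ENSMUSG00000051323 (Pcdh19), ENSMUSG00000071235 (Vrtn), ENSMUSG00000045382 (Cxcr4), ENSMUSG00000010760 (Phlda2) and ENSMUSG00000075304 (Sp5). The peak of Phlda2 sat on a high base, and those of Pcdh8, Pcdh19 and Cxcr4 on a base under 4 RPKM in both ESC and CP.

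The promoters of 4 of these genes are shown for the motifs they hold: Pcdh8, Cxcr4 and Phlda2 hold TATAAA where a TATA box usually lies, and Sp5 holds, farther from the start, a TCF/LEF sequence, the element bound by the WNT effectors Lef1 and Tcf7. Sequences are from RefSeq (GRCm38.p6, another build than that of the deposited values), read 5′ to 3′ on the gene's strand from 250 bases before the start to 50 after it, and capitals mark every match to the 7 motifs named below. They lie at chr14:79771263-79771562 (minus strand) for Pcdh8, chr1:128592250-128592549 (minus) for Cxcr4, chr7:143502475-143502774 (minus) for Phlda2 and chr2:70474673-70474972 (plus) for Sp5.
Pcdh8: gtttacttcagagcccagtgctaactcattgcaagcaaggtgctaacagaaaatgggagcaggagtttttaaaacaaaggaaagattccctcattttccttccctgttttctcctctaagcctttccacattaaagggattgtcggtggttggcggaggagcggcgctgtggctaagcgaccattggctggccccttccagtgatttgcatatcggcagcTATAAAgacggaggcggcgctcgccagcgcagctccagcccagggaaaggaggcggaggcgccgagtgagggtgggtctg
Cxcr4: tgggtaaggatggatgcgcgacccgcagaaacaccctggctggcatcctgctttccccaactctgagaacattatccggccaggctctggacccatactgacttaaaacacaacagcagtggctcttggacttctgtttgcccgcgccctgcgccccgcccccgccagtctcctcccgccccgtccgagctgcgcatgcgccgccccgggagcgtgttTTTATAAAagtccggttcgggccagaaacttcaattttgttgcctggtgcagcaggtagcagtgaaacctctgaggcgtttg
Phlda2: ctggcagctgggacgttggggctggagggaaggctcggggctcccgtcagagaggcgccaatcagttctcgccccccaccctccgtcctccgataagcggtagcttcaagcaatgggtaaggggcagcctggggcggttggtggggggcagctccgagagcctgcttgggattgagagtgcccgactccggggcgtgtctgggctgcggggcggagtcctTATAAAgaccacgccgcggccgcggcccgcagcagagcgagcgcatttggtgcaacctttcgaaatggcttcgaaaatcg
Sp5: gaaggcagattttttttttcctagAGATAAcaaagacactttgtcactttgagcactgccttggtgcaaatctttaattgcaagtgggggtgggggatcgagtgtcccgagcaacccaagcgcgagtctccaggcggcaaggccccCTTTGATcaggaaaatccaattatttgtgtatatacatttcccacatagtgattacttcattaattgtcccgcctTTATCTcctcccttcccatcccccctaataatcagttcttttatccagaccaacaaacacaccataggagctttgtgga
With -1 as the base just before the start, TATAAA lay at -30 to -25 in Pcdh8, Cxcr4 and Phlda2. In Cxcr4 the reverse complement TTTATA overlapped it at -32 to -27. Sp5 held CTTTGAT at -104 to -98, AGATAA at -226 to -221 and the reverse complement TTATCT at -29 to -24.

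Over the members, 149 had a promoter in the table, set beside 10262 promoters of all genes, with both strands searched. TATAAA occurred in 10.7% of member promoters and 6.88% of all promoters. Between 40 and 21 bases before the start and on the gene's strand, TATAAA lay in 6 member promoters (4.03%) and in 129 of all promoters (1.26%). The 6 were Pcdh8, Cxcr4, Phlda2, Lor, Rps6ka6 and Mylip. The core of the T-box site, AGGTGT, occurred in 13.4% of member promoters and 10.7% of all promoters. Of the TCF/LEF sequences, CTTTGAT was in 2.68% of member and 2.42% of all promoters and CTTTGAA in 3.36% and 3.49%. AGATAA, read by GATA factors, was in 4.70% of member and 6.06% of all promoters, and TGTTTAC, read by forkhead factors, in 2.01% and 2.52%. The E-box of SNAI and ZEB repressors, CACCTG, was in 18.1% of member and 17.8% of all promoters. The observed over expected ratio of CpG dinucleotides had a median of 0.674 in members and 0.765 in all genes, and 60.4% of member and 72.6% of all promoters reached 0.6. The median GC content was 64.0% in members and 61.3% in all genes. Sequence was not used to choose the members, and with 149 promoters a difference of a few percent rests on few genes. A match is a description of letters and not a bound site.

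**Figure D2:**
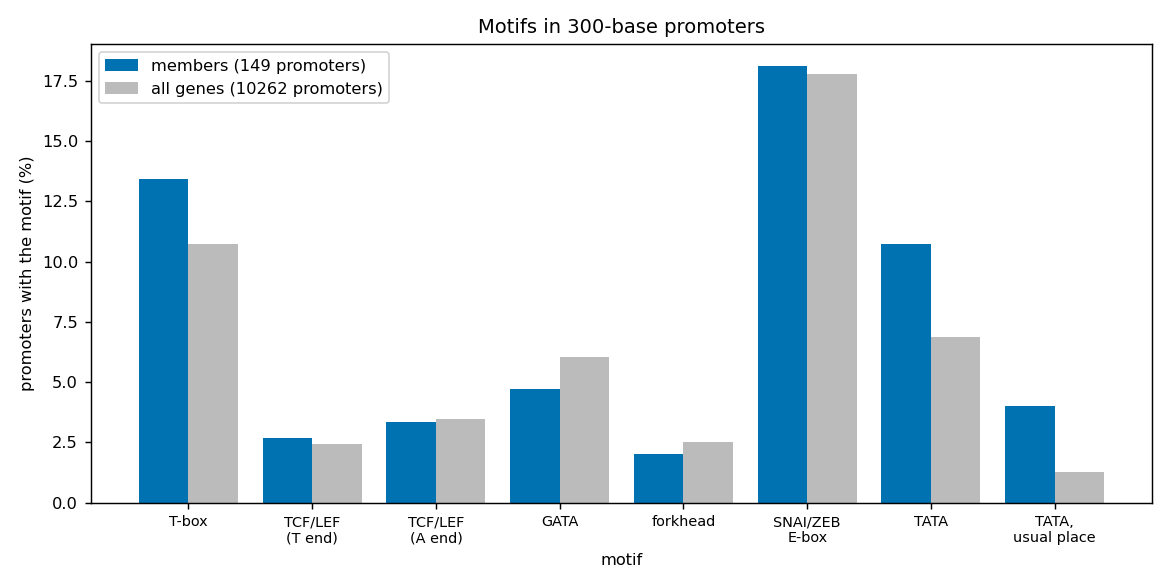
Bars give the percentage of promoters (250 bases before to 50 after the start) that hold each motif on either strand, for 149 member promoters (blue) and 10262 promoters of all genes (grey); the last pair counts TATAAA on the gene's strand between 40 and 21 bases before the start. The TATA bars differ most, with 10.7% of member and 6.88% of all promoters anywhere in the window and 4.03% and 1.26% at the usual place.

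Among ligands of the Notch pathway, Dll3, a divergent ligand that limits Notch signalling within the cell that makes it, stood at 2.98 in ESC, 55.8 in MES, 2.76 in CP and 0.291 RPKM in CM. Dll1, the ligand that is needed for somite formation, stood at 2.59 in ESC, 30.8 in MES, 0.447 in CP and 0.414 RPKM in CM. Its CP value lay under its ESC value, so by day 5.3 the level was below that of stem cells. Lfng, the sugar transferase that tunes the Notch receptor in the clock, was at 4.58 in ESC, 27.6 in MES, 2.98 in CP and 0.846 RPKM in CM. Ripply2, a repressor that helps to set somite borders, was low throughout, at 0.0264 in ESC, 3.12 in MES and 0.270 RPKM in CM, with 97 reads in MES and 0 reads in CP (a count of 3 reads there would be 0.0922 RPKM). The receptor Notch2 and the Notch target Hes1 had shallow peaks, at 8.83 in ESC, 25.8 in MES, 12.3 in CP and 14.1 RPKM in CM and 9.93 in ESC, 42.3 in MES, 18.5 in CP and 23.0 RPKM in CM, and kept over 10 RPKM in CP and CM. Of 30 genes of a Notch list in the table, 14 were at least 2-fold higher and 6 lower in MES than in ESC (11.2% of all genes lower), 8 were at least 2-fold lower and 7 higher in CP than in MES (8.91% of all genes higher), and 6 were members. Dll3, Dll1 and Lfng had the tallest peaks of the list. Exons of Dll1 overlap another annotated gene over 20.5% of their length, and strand was not stated for the counting.

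A list of 33 genes of somite and presomitic mesoderm held 11 members and 7 genes left out by symbol. In MES 23 of the 33 were at least 2-fold higher than in ESC and 3 lower, and 24 were at least 2-fold lower in CP than in MES and none higher. Its median difference was 2.16 for MES minus ESC and -2.09 for CP minus MES, against 0.05 and -0.03 for all genes. Members of this list beyond those named above were Epha4, Greb1, Nkx1-2, Rspo3 and Sp8. Epha4 and Greb1 were above 20 RPKM in MES, and Nkx1-2 and Sp8 were near 4 RPKM.

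WNT signalling gave 10 members out of 50 listed genes in the table. The ligand Rspo3, which strengthens WNT signals, was at 0.209 in ESC, 23.6 in MES, 2.56 in CP and 14.3 RPKM in CM. Lgr5, one of its receptors, was at 0.0346 in ESC, 3.05 in MES, 0.0588 in CP and 0.0181 RPKM in CM. The related listed receptor Lgr4, not a member, was at 16.4 in ESC, 6.42 in MES, 4.02 in CP and 9.41 RPKM in CM. Rspo3 was high again at day 10, whereas Lgr5 was above 1 RPKM in MES and in no other stage. Some inhibitors peaked and others did not. Axin2, the scaffold that destroys beta-catenin, was at 5.79 in ESC, 24.3 in MES, 3.66 in CP and 2.77 RPKM in CM, the membrane inhibitor Apcdd1 at 2.25 in ESC, 30.7 in MES, 4.78 in CP and 2.45 RPKM in CM and the secreted inhibitor Frzb at 0.135 in ESC, 27.4 in MES, 8.68 in CP and 2.94 RPKM in CM. Frzb differed from the others in that it was under 1 RPKM in ESC and kept 8.68 RPKM in CP. Of the listed inhibitors that were not members, Notum was at 32.4 in ESC and 2.34 RPKM in MES, Znrf3 at 4.01 in ESC and 4.25 RPKM in MES, and Sfrp5 had its highest value in CP, at 89.8 RPKM. Sfrp1, also not a member, narrowly missed the rule with a CP minus MES difference of -0.94. Its level was 6.21 in ESC, 46.4 in MES, 23.6 in CP and 13.4 RPKM in CM. The nuclear effectors Lef1 and Tcf7 were at 3.87 in ESC, 21.2 in MES, 3.79 in CP and 1.93 RPKM in CM and 16.3 in ESC, 34.4 in MES, 14.02 in CP and 7.57 RPKM in CM, and Tcf7 was already expressed in ESC. Ror1, a receptor of noncanonical WNT signals, was at 2.00 in ESC, 7.15 in MES, 2.76 in CP and 1.03 RPKM in CM, and Sp8, a relative of Sp5, at 0.862 in ESC, 4.17 in MES and 0.125 RPKM in CP and with 0 reads in CM. Over the list, 26 of 50 genes were at least 2-fold higher and 8 lower in MES than in ESC, and 16 were at least 2-fold lower and 3 higher in CP than in MES. Receptor, ligand, inhibitor and target genes of the pathway were thus all among the members.

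Of 58 NODAL, BMP and TGF-beta genes, 3 were members. Fst, which binds and blocks activins, was at 2.09 in ESC, 13.96 in MES, 0.106 in CP and 0.508 RPKM in CM, and its CP value rests on 16 reads. Amhr2, the type II receptor of anti-Müllerian hormone, known from the reproductive tract, was at 1.84 in ESC, 20.1 in MES, 2.15 in CP and 1.27 RPKM in CM. Smad1, which carries BMP signals to the nucleus, was at 2.89 in ESC, 19.7 in MES, 8.33 in CP and 7.07 RPKM in CM and stayed above 7 RPKM after day 4. In the same list the MES level of 25 genes was at least 2-fold above the ESC level, but only 7 were at least 2-fold lower in CP than in MES, while 9 were higher. The listed ERK feedback genes (23 in the table) held no member, with 2 at least 2-fold higher and 5 lower in MES than in ESC.

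Hedgehog genes were not on a fixed list and were grouped after their values were seen. Shh, the ligand, was low, at 0.0166 in ESC, 1.84 in MES, 0.315 in CP and 0.0141 RPKM in CM, and 28.3% of its exon length overlaps other annotated genes. Gas1, a co-receptor that holds Shh at the cell surface, was at 1.34 in ESC, 79.6 in MES, 16.4 in CP and 22.1 RPKM in CM and was above the ligand at every stage. Glis1, a zinc finger factor related to the Gli effectors, was at 0.273 in ESC, 9.28 in MES, 0.826 in CP and 0.477 RPKM in CM. Gas1 kept 16.4 RPKM in CP and 22.1 RPKM in CM, whereas Glis1 was under 1 RPKM at both.

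The receptor Cxcr7, which takes up Cxcl12 and so shapes the signal to Cxcr4, had a lower and broader peak than Cxcr4, with 1.64 in ESC, 11.3 in MES, 4.93 in CP and 2.63 RPKM in CM. Apln, the ligand of the apelin receptor, which guides early cardiac cells, was at 0.599 in ESC, 6.22 in MES, 0.412 in CP and 10.6 RPKM in CM and thus had high values at day 4 and day 10. Gfra3, the receptor of the neurotrophic factor artemin, was at 0.307 in ESC, 11.8 in MES, 1.65 in CP and 0.0227 RPKM in CM. Prokr1, a prokineticin receptor, was at 0.0620 in ESC, 3.25 in MES, 0.877 in CP and 0.403 RPKM in CM, and Gna14, a G protein subunit of the Gq class, was at 1.07 in ESC, 5.12 in MES, 1.65 in CP and 0.00343 RPKM in CM with 1 read in CM. Further receptor genes known from neurons and other excitable or secretory cells were members with low peaks: Gabbr2 (a GABA-B receptor subunit) was at 2.96 RPKM in MES, S1pr5 at 2.83, Adcyap1r1 (the receptor of the peptide PACAP) at 5.87 and Chrnb4 (a nicotinic receptor subunit) at 3.37. Each of these was under 2 RPKM in ESC, CP and CM. Among 40 listed genes of chemokine and G-protein signalling, 7 were members, 12 were at least 2-fold higher and 4 lower in MES than in ESC, and 7 were lower and 12 higher in CP than in MES.

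Genes of axon guidance and of nervous system surface proteins made up the largest role group, with 19 members. L1cam, an adhesion protein of growing axons, was at 0.495 in ESC, 14.7 in MES, 0.273 in CP and 0.238 RPKM in CM, and 128 reads in CP and 153 in CM lie behind its low values. The Robo family receptors Robo3 and Robo1 were at 0.123 in ESC, 13.5 in MES, 0.475 in CP and 0.144 RPKM in CM and 6.66 in ESC, 30.9 in MES, 12.5 in CP and 4.13 RPKM in CM. The secreted ligand Slit1 was at 0.295 in ESC, 11.8 in MES, 0.799 in CP and 0.598 RPKM in CM. Robo1 was present at all stages, while Robo3 and Slit1 were under 1 RPKM outside MES. The ligand Efna3 was at 2.38 in ESC, 26.8 in MES, 3.06 in CP and 4.56 RPKM in CM and the receptor Epha4, which sets somite borders, at 10.0 in ESC, 24.3 in MES, 8.10 in CP and 3.24 RPKM in CM. Sema5b, a semaphorin, was at 1.23 in ESC, 4.16 in MES, 0.0958 in CP and 0.0239 RPKM in CM and Plxna2, a semaphorin receptor, at 0.533 in ESC, 10.2 in MES, 4.36 in CP and 2.15 RPKM in CM. Rgma, which binds the receptor neogenin and acts as a BMP co-receptor, was at 1.12 in ESC, 20.7 in MES, 5.62 in CP and 3.89 RPKM in CM. Ntm, an adhesion protein of neurons, was at 0.107 in ESC, 2.85 in MES, 0.290 in CP and 6.26 RPKM in CM and its highest value was in CM. Over 57 listed ephrin, semaphorin, slit and netrin genes, 37 were at least 2-fold higher and 5 lower in MES than in ESC, while 9 were lower and 10 higher in CP than in MES. A minority of that list was thus lower at day 5.3, and the rule itself places the 7 members among those 9. None of the 13 neural genes in the table (a list of neural transcription factors and neuronal proteins) was a member, and for 7 of them the MES level was at least 2-fold under that of ESC.

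**Figure D3:**
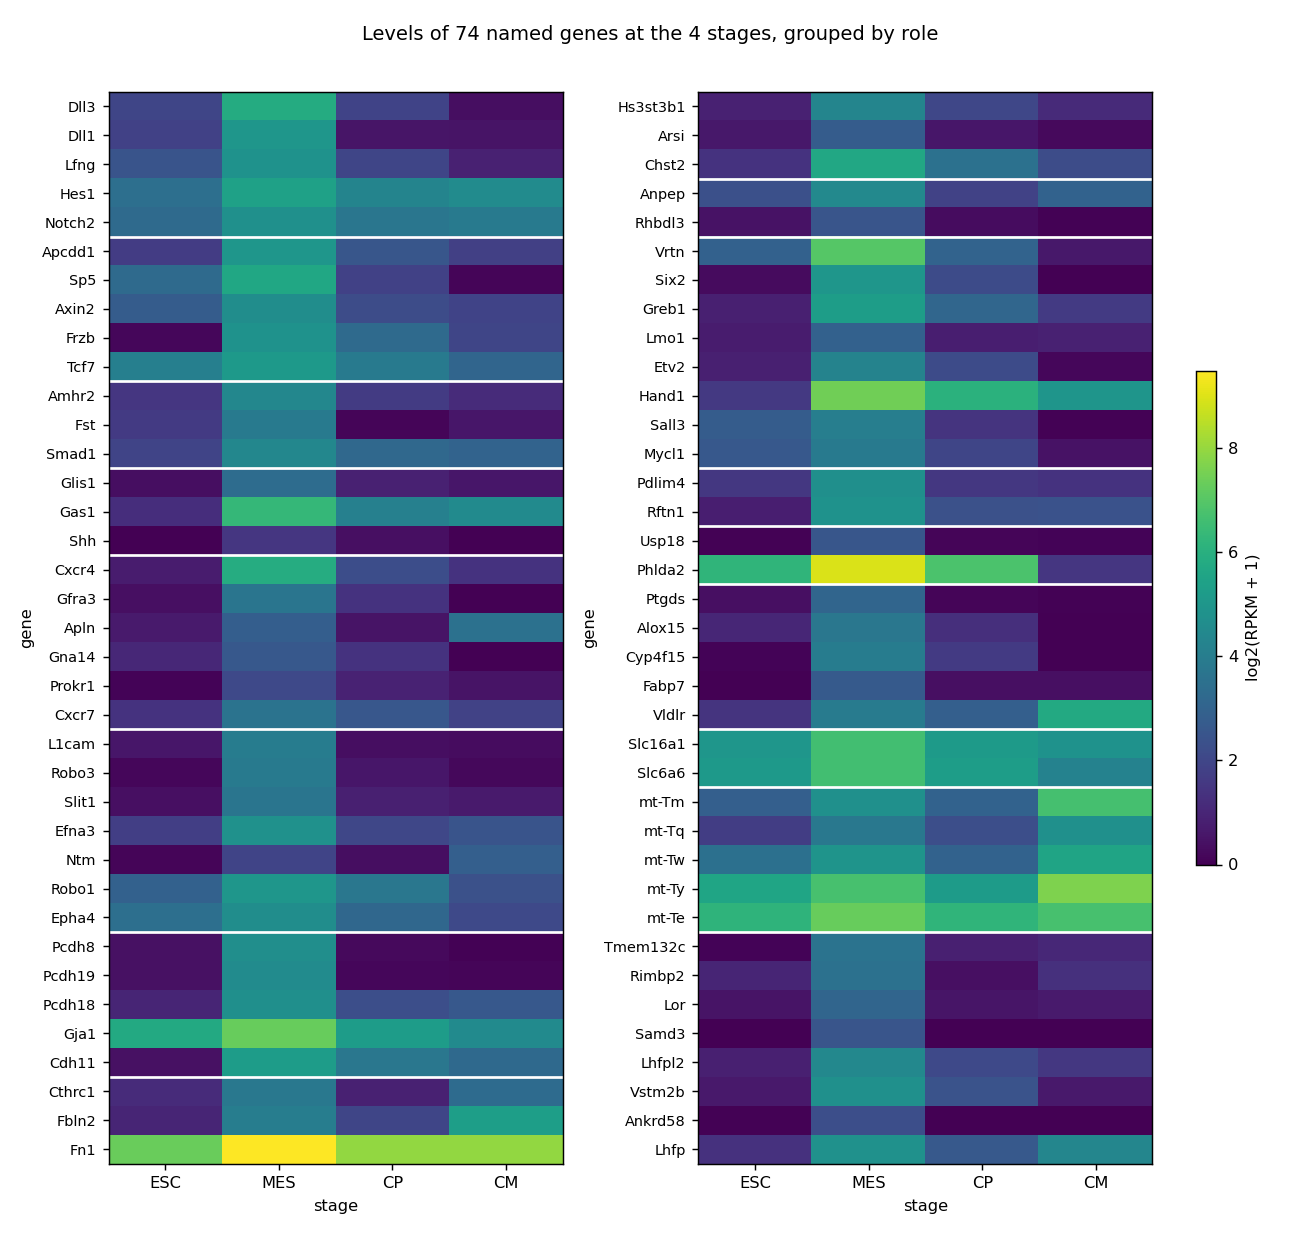
Colour gives log2(RPKM + 1) for 74 of the 76 genes chosen by the naming rule, with stages from day 0 to day 10 across and genes down, and white lines between role groups. The MES column is the brightest in most rows; Fn1 is bright at all stages, and Fbln2, Vldlr, Apln and the mitochondrial tRNA genes are bright again in CM.

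Besides Pcdh8 and Pcdh19, the adhesion genes included Pcdh18 at 0.954 in ESC, 25.5 in MES, 3.80 in CP and 5.04 RPKM in CM and Cdh11, a cadherin of mesenchyme, at 0.340 in ESC, 37.0 in MES, 12.6 in CP and 8.57 RPKM in CM. Pcdh18 and Cdh11 kept 3.80 and 12.6 RPKM in CP, so the protocadherins of the group differed in their level after day 4. Gja1, the gap junction protein that later couples heart muscle cells, was at 53.2 in ESC, 153 in MES, 37.1 in CP and 22.1 RPKM in CM and lowest in CM. Gjb2, a gap junction protein of epithelia and the inner ear, peaked at only 1.68 RPKM. Of 51 listed adhesion and laminin genes, 6 were members, with 13 at least 2-fold higher and 15 lower in MES than in ESC.

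Matrix genes held the highest member of all. Fn1, fibronectin, on which nascent mesoderm migrates, was at 159 in ESC, 715 in MES, 246 in CP and 243 RPKM in CM. It was above 150 RPKM at every stage. Fbln2, a fibulin that ties matrix fibres, was at 0.996 in ESC, 15.4 in MES, 2.91 in CP and 39.3 RPKM in CM, and Cthrc1, a secreted protein of remodelled matrix, at 1.26 in ESC, 12.8 in MES, 0.834 in CP and 9.02 RPKM in CM. Fbln2 and Cthrc1 were both high at day 4 and at day 10. Coch, known from the inner ear, was at 5.54 in ESC, 20.3 in MES, 0.597 in CP and 0.290 RPKM in CM and Optc, a proteoglycan known from the eye, at 0.0309 in ESC, 2.85 in MES, 0.0120 in CP and 0.364 RPKM in CM. Genes that alter sugar chains were a further group of 9 members. Hs3st3b1, Chst2 and Chst7, which add sulfate to sugar chains, were at 0.824 in ESC, 18.8 in MES, 3.04 in CP and 1.21 RPKM in CM, 1.62 in ESC, 50.0 in MES, 10.5 in CP and 3.66 RPKM in CM and 0.909 in ESC, 15.4 in MES, 3.13 in CP and 0.988 RPKM in CM. Sulf1, which removes sulfate from heparan chains and so changes ligand binding, was at 18.4 in ESC, 43.5 in MES, 13.5 in CP and 1.98 RPKM in CM, and Gpc1, a membrane carrier of such chains, at 14.3 in ESC, 55.2 in MES, 19.4 in CP and 22.4 RPKM in CM. In this group 4 members were at least 2-fold lower in CM than in CP (12.8% of all genes) and none higher (11.3% of all genes). The number lower was 3 under quantile normalization and 5 with each stage scaled to the same sum, settings at which the share of all genes was not counted.

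Proteases and their relatives gave 9 members. Anpep, the aminopeptidase N of cell surfaces, was at 4.00 in ESC, 20.8 in MES, 2.65 in CP and 6.98 RPKM in CM. Pcsk5, a convertase of secreted proteins, was at 0.128 in ESC, 6.83 in MES, 1.28 in CP and 4.14 RPKM in CM. Pappa, which frees insulin-like growth factor from a binding protein, was at 0.113 in ESC, 2.86 in MES, 0.0722 in CP and 1.52 RPKM in CM, and Rhbdl3, a rhomboid protease, at 0.365 in ESC, 4.62 in MES, 0.241 in CP and 0.0525 RPKM in CM. Anpep, Pcsk5 and Pappa were higher in CM than in CP but lower than in MES, while Rhbdl3 was under 1 RPKM in CM.

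A group of 16 members were transcription factors or other DNA-binding proteins. Hand1, a factor of lateral and extraembryonic mesoderm and of the left ventricle, was at 1.98 in ESC, 172 in MES, 65.8 in CP and 30.1 RPKM in CM, the third highest level in MES. Six2, known for nephron progenitors, was at 0.212 in ESC, 30.6 in MES, 3.46 in CP and 0.0125 RPKM in CM with 2 reads in CM, and Alx1, of head mesenchyme, at 0.144 in ESC, 11.5 in MES, 2.10 in CP and 1.34 RPKM in CM. Etv2, the factor that starts the endothelial and blood lineages, was at 0.785 in ESC, 18.1 in MES, 3.45 in CP and 0.137 RPKM in CM. Of 37 listed genes of endothelium and early blood, Etv2 was the only member, and 30 of the 37 were at least 2-fold higher in CP than in MES. Sox9, of cartilage and heart valves, was at 0.0482 in ESC, 10.9 in MES, 1.21 in CP and 3.64 RPKM in CM, the only member of the group that was at least 2-fold higher in CM than in CP. Greb1, induced by estrogen in breast cells, and its relative Greb1l were at 0.768 in ESC, 38.1 in MES, 7.85 in CP and 2.06 RPKM in CM and 1.87 in ESC, 41.4 in MES, 14.7 in CP and 1.37 RPKM in CM. Sall3 and Mycl1 were at 5.71 in ESC, 15.8 in MES, 1.69 in CP and 0.0350 RPKM in CM and 5.10 in ESC, 13.9 in MES, 2.93 in CP and 0.380 RPKM in CM and were already above 5 RPKM in ESC. Lmo1, an adaptor of factor complexes, was at 0.665 in ESC, 6.71 in MES, 0.749 in CP and 0.831 RPKM in CM, and Pgr, the progesterone receptor, peaked at 1.80 RPKM. Nkx1-2, of the caudal epiblast, was at 1.35 in ESC, 4.03 in MES and 0.0567 RPKM in CP with 0 reads in CM. In CM 9 of the 16 were at least 2-fold lower than in CP, against 12.8% of all genes. The number was 9 under quantile normalization and 10 with each stage scaled to the same sum, settings at which the share of all genes was not counted. The groups were formed after the values were seen, and further factors were grouped with pathways, among them Sp5, Tcf7, Lef1, Sp8 and Hes1. The CM minus CP differences of these 5 were -1.70, -0.81, -0.71, -0.17 and 0.30.

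Cytoskeletal members included Pdlim4, a PDZ and LIM protein on actin, at 1.91 in ESC, 25.5 in MES, 1.88 in CP and 1.61 RPKM in CM, and Rftn1, a lipid raft protein, at 0.757 in ESC, 27.4 in MES, 4.07 in CP and 4.26 RPKM in CM. Amot, which controls YAP and cell polarity, was at 3.31 in ESC, 93.9 in MES, 45.6 in CP and 8.71 RPKM in CM, and its peak height of 1.03 left the rule under both scalings tried. Tes, a focal adhesion protein, was at 10.3 in ESC, 32.01 in MES, 14.7 in CP and 0.825 RPKM in CM. Pdlim3, a relative of Pdlim4 found at muscle Z-discs, was at 2.55 in ESC, 16.9 in MES, 7.66 in CP and 45.1 RPKM in CM, so these PDZ-LIM genes differed in level at day 10.

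Enzymes of lipids were mostly genes known from other tissues. Ptgds, the prostaglandin D synthase of brain, was at 0.298 in ESC, 7.59 in MES, 0.0936 in CP and 0.0480 RPKM in CM. Alox15, a lipoxygenase of blood cells, was at 1.03 in ESC, 12.5 in MES, 1.42 in CP and 0.0138 RPKM in CM, and Cyp4f15, a fatty acid hydroxylase, at 0.0753 in ESC, 15.0 in MES and 2.09 RPKM in CP with 0 reads in CM. Fabp7, the fatty acid carrier of radial glia, was at 5.44 in MES, 0.304 in CP and 0.296 RPKM in CM with 0 reads in ESC. Usp18, the protease that removes ISG15 in the interferon response, was at 0.0300 in ESC, 4.84 in MES, 0.105 in CP and 0.0702 RPKM in CM. None of these 5 genes reached 3 RPKM outside MES. The solute carriers Slc16a1 (lactate) and Slc6a6 (taurine) were abundant at all stages, at 31.0 in ESC, 96.4 in MES, 35.1 in CP and 27.7 RPKM in CM and 33.6 in ESC, 95.6 in MES, 37.8 in CP and 17.3 RPKM in CM.

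Growth control genes were a group of 17 members that included Phlda2 and Usp18. Trib2 and Trib1, pseudokinases that steer protein breakdown, were at 2.52 in ESC, 12.2 in MES, 3.99 in CP and 8.12 RPKM in CM and 3.88 in ESC, 10.6 in MES, 4.49 in CP and 4.50 RPKM in CM. Lrig3, a membrane protein that dampens growth factor receptors, was at 13.1 in ESC, 29.1 in MES, 3.34 in CP and 1.58 RPKM in CM, and Magel2, an imprinted gene of the hypothalamus, at 1.27 in ESC, 5.72 in MES, 0.997 in CP and 0.458 RPKM in CM. Map3k5, a stress kinase, was at 1.12 in ESC, 3.69 in MES, 0.791 in CP and 3.13 RPKM in CM and had its CM value near its MES value. Of 6 members that bind RNA, Zfp36l2, which speeds the decay of mRNAs, was the highest, at 19.6 in ESC, 78.1 in MES, 30.05 in CP and 10.1 RPKM in CM, and Srrm4, a splicing factor of neurons, the lowest, at 0.222 in ESC, 1.73 in MES, 0.0730 in CP and 0.131 RPKM in CM.

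The less known members included 159 that were on no fixed list, and 26 that were given no role group. Tmem132c, a membrane protein, was at 0.0749 in ESC, 11.3 in MES, 0.802 in CP and 1.09 RPKM in CM, and Rimbp2, which in neurons ties calcium channels to release sites, at 0.965 in ESC, 10.5 in MES, 0.308 in CP and 1.47 RPKM in CM. Lor, loricrin of the cornified skin envelope, was at 0.426 in ESC, 7.44 in MES, 0.461 in CP and 0.605 RPKM in CM. The relatives Lhfpl2 and Lhfp were at 0.775 in ESC, 20.6 in MES, 3.30 in CP and 1.88 RPKM in CM and 1.52 in ESC, 26.5 in MES, 5.20 in CP and 19.5 RPKM in CM, and Lhfp alone of the pair was high again in CM. Vstm2b was at 0.555 in ESC, 25.8 in MES, 4.44 in CP and 0.575 RPKM in CM. Samd3 was at 4.63 in MES and 0.0181 RPKM in CP and listed at 0 in ESC and CM, and Ankrd58 was at 0.0422 in ESC and 3.91 RPKM in MES and listed at 0 in CP and CM. Arsi, an arylsulfatase, was at 0.540 in ESC, 5.82 in MES, 0.502 in CP and 0.184 RPKM in CM. Among these genes Tmem132c, Rimbp2 and Lor had peak heights of 2.77, 2.55 and 2.53, beside 3.83 for Dll3 and 2.38 for Sp5.

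Genome position was not used to choose the members. By GENCODE M21, 198 members and 13260 genes of the table were placed, and 22 members (11.1%) had a next gene in table order that also met the day 4 rule, against 456 of all genes (3.44%). Noncoding RNA genes beside left-out factors were 3 of these, and 1 further pair was placed by RefSeq alone. The antisense gene 5730457N03Rik next to Evx1 was at 0.126 in ESC, 13.9 in MES, 0.163 in CP and 0.0345 RPKM in CM, and Evx1 at 0.483, 41.6, 0.308 and 0.197 RPKM over the same stages. Their exons overlap over 2.42% of the antisense gene, and without strand the overlapping reads cannot be told apart. The noncoding gene 1500016L03Rik beside Lhx1 was at 0.0380 in ESC, 7.54 in MES, 2.92 in CP and 0.0809 RPKM in CM and Lhx1 at 0.0290, 42.9, 7.20 and 0.0466 RPKM over the same stages. The noncoding gene 9030622O22Rik beside Foxa2 peaked at 1.11 RPKM and Foxa2 at 6.88 RPKM. The noncoding gene 1110050K14Rik, which RefSeq names Fendrr and places next to Foxf1, was at 5.23 in MES, 0.432 in CP and 0.0190 RPKM in CM with 0 reads in ESC, and Foxf1a at 0.200, 89.9, 10.4 and 0.191 RPKM over all 4 stages. In each of these 4 pairs the noncoding gene stood below its neighbour in MES and both were highest in MES. The rule fixed this order against ESC and CP but not against CM.

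Coding neighbours that both met the rule were also found. Vrtn lay between Abcd4, a transporter of cobalamin, at 7.96 in ESC, 20.9 in MES, 9.70 in CP and 7.53 RPKM in CM, and Tmem90a at 0.133 in ESC, 2.59 in MES, 0.0679 in CP and 0.0271 RPKM in CM. Pcdh8 lay beside Lect1, a cartilage protein, at 1.08 in MES and 0.0158 RPKM in CM and listed at 0 in ESC and CP. Gas1 lay beside Dapk1, a kinase of cell death, at 9.12 in ESC, 41.8 in MES, 20.1 in CP and 14.4 RPKM in CM. The other neighbouring pairs were Cachd1 and Ror1, Cbln1 and Zfp423, Ankrd58 and Sept6, Tmprss2 and Bace2, Tmem90b and C530025M09Rik, Stk32b and Msx1, and Anpep and Mesp2. In C530025M09Rik, 42.0% of the exon length overlaps its neighbour, so that pair may share reads. Pairs differed in height, with 125 RPKM in MES for Vrtn and 2.59 RPKM for Tmem90a. On the X chromosome lay 18 members (9.09% of those placed), against 459 of all genes (3.46%), among them Pcdh19, L1cam, Apln, Amot, Rps6ka6 and Chst7.

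**Figure D4:**
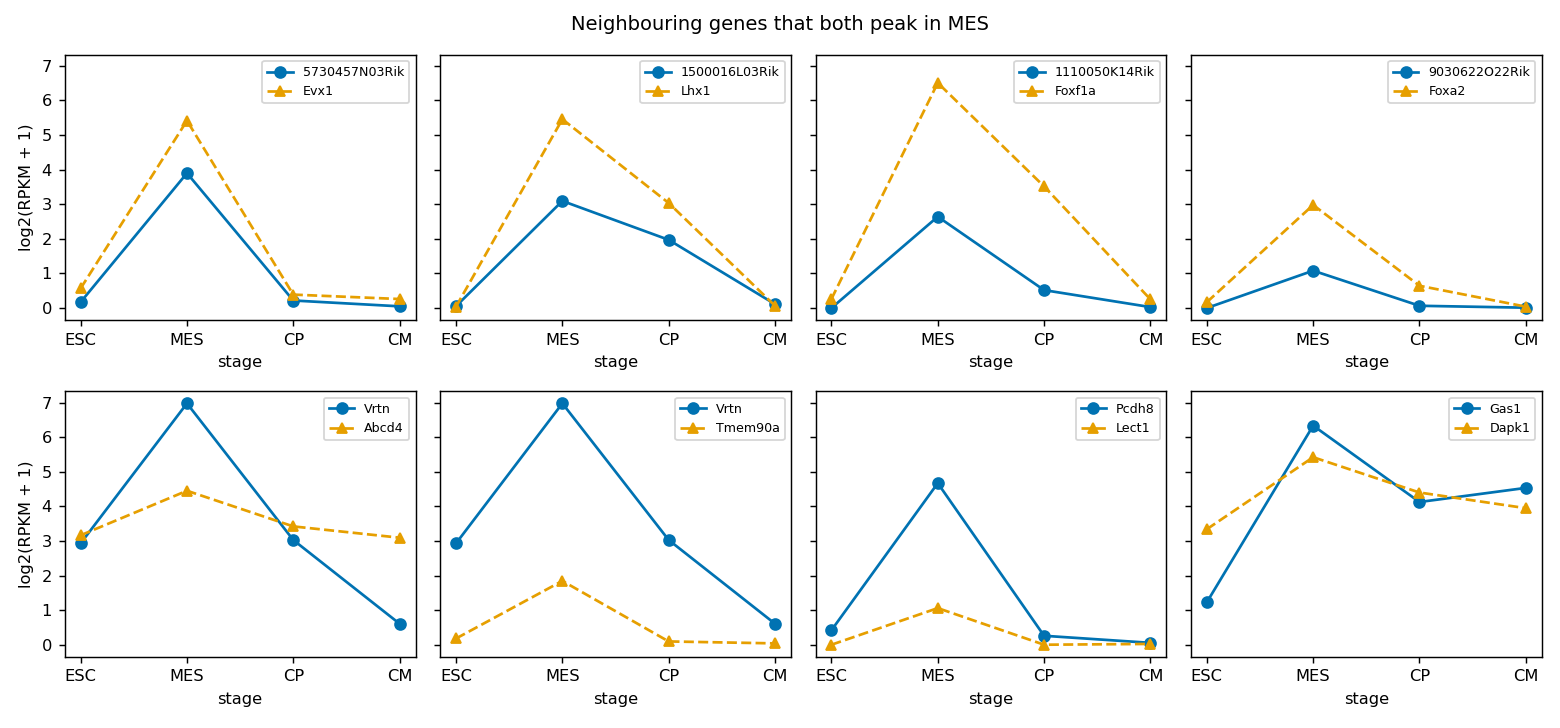
Lines give log2(RPKM + 1) of 8 pairs of neighbouring genes that both met the day 4 rule, from ESC to CM. Upper panels pair noncoding members (blue) with the left-out factor beside them (orange), lower panels pair coding members; both lines of every panel are highest in MES, and Foxf1a keeps 10.4 RPKM in CP while Evx1 is at 0.308 RPKM.

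Day 10 was not used to choose the members, although MES, CP and ESC, with which it is compared, were. Because the rule required a high MES value, the counts of CM against MES carry no test. In CM 171 members (81.4%) were at least 2-fold lower than in MES (19.6% of all genes) and 5 were at least 2-fold higher (17.6% of all genes). Against CP, 43 members (20.5%) were at least 2-fold lower in CM (12.8% of all genes) and 27 (12.9%) at least 2-fold higher (11.3% of all genes). Under 2-fold apart were 140 members and 10287 of the 13540 genes. The 27 include 8 of the 9 mitochondrial tRNA genes, and without these genes 43 of 201 members were lower and 19 higher. The number of members lower in CM than in CP was 68 with each stage scaled to the same sum, 40 under quantile normalization and 76 at a pseudocount of 0.1. The share of all genes was not counted at these settings, so these numbers have no such share beside them. The median CM minus CP difference was -0.20 in members and -0.15 in all genes. It was -0.47 and -0.29 with each stage scaled to the same sum and -0.11 and -0.06 under quantile normalization. At a pseudocount of 0.1 it was -0.54 in members and -0.21 in all genes. Against ESC, 46 members were at least 2-fold higher in CM (22.2% of all genes) and 30 lower (23.4% of all genes). Under 2-fold apart were 134 members and 7363 of the 13540 genes, and the median difference of members was 0.02. CM was the stage of the lowest value in 94 of the 210 members and in 5408 of the 13540 genes.

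Some members had high values again at day 10. Vldlr, a lipoprotein receptor of heart and muscle, was at 1.69 in ESC, 14.6 in MES, 6.29 in CP and 53.8 RPKM in CM, a CM minus CP difference of 2.91. For Fbln2 the difference was 3.36, for Apln 3.04, for Ntm 2.49 and for Cthrc1 2.45. Fbln2, Vldlr, Pdlim3 and mt-Tm were among the 5 members at least 2-fold higher in CM than in MES. In all 16 members had a higher value in CM than in MES (5993 of the 13540 genes had), and 8 of these members were mitochondrial tRNA genes. The 16 included Pdzrn3, a ubiquitin ligase scaffold, at 0.565 in ESC, 12.9 in MES, 2.69 in CP and 12.9 RPKM in CM, and Tceal6 at 0.143 in ESC, 2.06 in MES, 0.263 in CP and 4.02 RPKM in CM. At the other end, named after their values were seen, Phlda2 had a CM minus CP difference of -5.29, Tes -3.11, Greb1l -2.72, Hist1h2ak -2.66 and Mns1 -2.54. Phlda2 was at 1.87 RPKM in CM, against 111 RPKM in CP, the largest difference in size between these stages among the members. Over 50% of the 32-base words of 6 members (Hist1h2ak, Mns1, Tceal6, Gm5771, 1110034A24Rik and Mir1191) occur in transcripts of other genes, so their levels are uncertain.

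**Figure D5:**
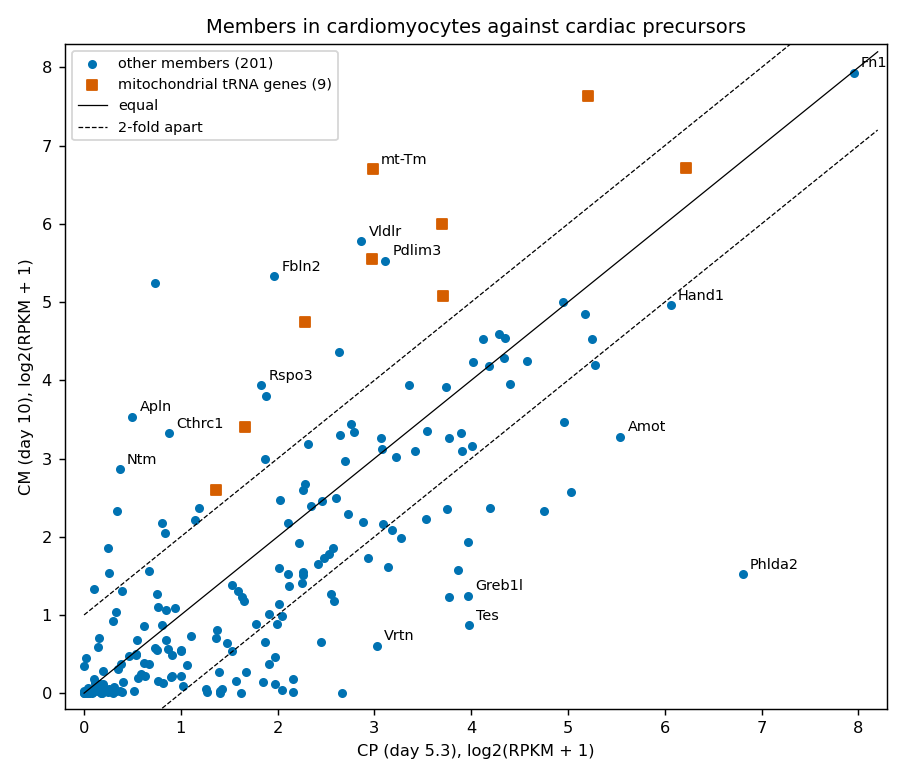
Each point is a member, with log2(RPKM + 1) in CP on the horizontal axis and in CM on the vertical axis; the solid line marks equal values and the dashed lines 2-fold differences. Fbln2, Vldlr, Apln and 8 of 9 mitochondrial tRNA genes (orange squares) lie above the upper line, and Phlda2, Tes, Vrtn and Greb1l lie below the lower line.

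The 9 mitochondrial tRNA genes among the members were higher at both day 4 and day 10 than in ESC and CP. The lowest of them, mt-Tv, was at 4.68 in MES and 5.07 RPKM in CM. mt-Tm was at 6.35 in ESC, 26.2 in MES, 6.94 in CP and 103 RPKM in CM, mt-Ty at 46.2 in ESC, 104 in MES, 35.9 in CP and 198 RPKM in CM and mt-Te at 71.0 in ESC, 153 in MES, 73.6 in CP and 104 RPKM in CM. Over all 16 mitochondrial tRNA genes of the table the median was 18.5 in ESC, 35.2 in MES, 15.0 in CP and 60.98 RPKM in CM, while the 7 mitochondrial mRNA genes, none of which was a member, had a median of 664, 763, 519 and 588 RPKM over the same stages. The 2 mitochondrial rRNA genes, also not members, had a median of 208 in ESC, 269 in MES, 113 in CP and 278 RPKM in CM. The gene models of the 9 members are 64 to 69 bases long, and their values rest on few reads, from 20 reads in MES for mt-Tv to 656 for mt-Te. These values count reads of a poly(A) library on the gene model and do not measure the mature tRNA. mt-Te and mt-Ta left the day 4 rule under both scalings.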

How the data were processed

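The deposited RPKM values have 1 column for each stage and 13540 genes, all above 1 RPKM in at least 1 stage, and 0 columns of values were left unused. Reads were aligned with Novoalign 2.07.00 to mm9, per the submitters' processing notes. The sources used here do not give the read counter, its use of strand, the annotation or the way in which 2 libraries became 1 value. The labels do not say whether the libraries came from separate cultures beyond calling them duplicates. The planned limma fit needed a column per library and was not run.

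Differences are of log2(RPKM + 1), computed here from the deposited values with a pseudocount of 1, and counts are of genes at least 2-fold apart. Depth and reads were recovered from the steps between values (10551 genes, 77.9%, relative tolerance 5e-07), so a value of 3 reads or fewer is near the floor. Promoters and RefSeq names came from GRCm38.p6, and gene order, overlap and shared 32-base words from GENCODE M21, in which 207 of 210 members were matched by gene ID. Protein sequences were not used here. Scripts ran in Python 3.11.15 with pandas 2.3.3, numpy 2.4.6, scipy 1.17.1 and matplotlib 3.10.9, and were tested on simulated data.

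Members and the 15 lists were chosen with earlier results of these data known. Of the members, the rule named 76 genes: the 10 highest in MES, the 10 tallest peaks, those at the threshold, the 10 with the largest CM minus CP difference, up to 5 per list, and the 30 tallest peaks on no list. Names that are clone numbers (12 members) were left out of it. Role groups and further genes named were chosen after their values were seen. A few members are counted but not reported here by name.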

Additional observations from a re-analysis of the deposited data

How the results depend on the processing

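The number of members depended on the pseudocount and the minimum: 336 genes met the rule at a pseudocount of 0.1 and 55 at a minimum of 4-fold, beside 270 at a pseudocount of 0.5, 178 at a minimum of 3 RPKM in MES, 292 after scaling every stage to add up to 1000000 (203 shared with the 210) and 235 under quantile normalization (196 shared). The members lost under the scalings, 7 and 14, lay near the threshold, with peak heights of at least 0.96 and 0.85. They include Notch2, Tle3, Amot, Dapk1, mt-Te and mt-Ta under both, and Tcf7 under quantile normalization. Counts at day 10 were taken over the same 210 members and moved as follows. At a pseudocount of 0.1, 76 members were lower in CM than in CP, and against ESC 57 were lower in CM and 89 under 2-fold apart. With stages adding up to 1000000, 68 were lower in CM than in CP. With the minimum for the CM differences set at 4-fold, 13 of the 210 were higher and 13 lower in CM than in CP. Against ESC, 21 were at least 4-fold higher and 14 lower in CM. The share of all genes was not counted at these settings. In the promoter window of 150 bases before to 50 after the start, AGGTGT was in 7.38%, CTTTGAA in 0.671% and CACCTG in 10.1% of member promoters, while TATAAA was in 8.72%, against 3.94% of all promoters. Leaving out the mitochondrial tRNA genes and the TATA count at a fixed place were chosen after seeing the data. No paired analysis was possible because the table holds 1 column per stage, and libraries could not be left out in turn for the same reason. Depth limits the lowest values: of the 191 members with recovered read numbers, 154 had at least 10 reads at every stage.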

Other observations

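Of the genes just outside the threshold, Fads2, a fatty acid desaturase, was at 21.2 in ESC, 135 in MES, 67.4 in CP and 53.4 RPKM in CM, and Lrp8, a receptor of reelin, at 1.16, 5.00, 2.01 and 5.91 RPKM over the same stages. Lrp8 is a relative of the member Vldlr, and both Lrp8 and Vldlr were highest in CM.

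Of 16 listed germ cell genes, 0 were members, and in 13 the MES level was at least 2-fold under the ESC level. Of 13 listed genes of trophoblast and surface ectoderm 1 was a member, Hand1, and of 25 endoderm genes 2 were, Cxcr4 and Shh. With genes left out by symbol counted too, 2 of these 13 genes and 7 of the 25 endoderm genes met the day 4 rule. Of all genes 1.8% met it. Among 72 listed transcription factors of mesoderm, 44 were at least 2-fold higher in MES than in ESC and 9 were members, while 22 were at least 2-fold higher in CP than in MES and 14 lower.

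The small noncoding members rest on few reads. Mir1191 was at 1.22 in ESC, 3.50 in MES, 1.16 in CP and 0.659 RPKM in CM, from 26 reads in MES, and its model lies whole within exons of BC024978. SNORA42.1 was at 1.27 in ESC, 3.56 in MES, 0.681 in CP and 1.41 RPKM in CM, from 30 reads in MES. These values count reads of a poly(A) library on the gene model and do not measure the mature microRNA.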
